A study of Mus musculus with 2 samples.

Results

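The regions described here were transcribed loci without a gene name that Cufflinks reported in both libraries. Members were selected on FPKM above 0 and on overlap. A control locus was a member when it lay on an autosome, carried no gene name, had an FPKM above 0, and overlapped by at least 1 bp an unnamed Klf9-OE locus that also had an FPKM above 0. Of the 6177 autosomal unnamed loci in control, 4207 were members, and the other 1970 met no unnamed Klf9-OE locus. The members overlapped 5315 of the 14526 autosomal unnamed loci in Klf9-OE. All loci in the tables numbered 30382 in control and 39071 in Klf9-OE.

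The libraries came from primordial germ cells (PGCs) of mouse embryos at E13.5. For PGC collection the study used genital ridges from embryos of both sexes, and it does not state the share of each sex in a library. PGCs were sorted by the Oct4-deltaPE-GFP reporter, infected with a control lentivirus or with one carrying Klf9 (Klf9-OE) at an MOI of 5, and cultured for 1 day. Embryos had an MCH mother and an Oct4-deltaPE-GFP father on a C57BL/6J background, and both groups carried the reporter. The study describes culture of these cells without bFGF, whereas the labels describe GS medium with bFGF. There was 1 library per group, so no difference below has a replicate check, and the Cufflinks 95% intervals cover the error of estimation within a library only. Reporter-sorted cells can include cells of other types. The 28 germ cell marker genes were all above 0 in control (summed FPKM 3784 in control and 3363 in Klf9-OE). The sums were 33.9 and 42.3 for 15 gonadal somatic markers, 9.94 and 10.6 for 11 macrophage markers, and 20.3 and 33.1 for 8 endothelial markers, with Star and Eng listed at 0 in control. Pecam1 alone made up 16.8 and 24.2 of the endothelial sums. Cdh5, Eng, Esam and Kdr were also higher in Klf9-OE, whereas Tek, Tie1 and Emcn were lower. In such bulk libraries, fewer cells of a type and less RNA per cell cannot be told apart. Klf9 itself had an FPKM of 2.27 (1.97 to 2.57) in control and 80.8 (77.0 to 84.5) in Klf9-OE. The vector carries the coding region of Klf9, so this value includes vector RNA. The read totals implied by the intervals of long genes with 1 transcript were 24.9 M in control and 30.5 M in Klf9-OE.

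Cufflinks joins overlapping aligned reads into transcript models. Models that it assigns to a gene of the supplied annotation carry that gene's name and the rest stay unnamed, including many that overlap a named gene. Unnamed models therefore include long noncoding RNAs, pseudogenes, retained introns, extensions of a gene past its annotated end, and genes that the annotation of the time did not hold. Germ cells are known for transcribing many such regions, among them meiotic genes that few other tissues use. FPKM divides the reads by the length on which a read can start, and with 51-base reads that length is very small for a locus little longer than a read. The TruSeq v2 kit does not mark strand, so the reads of an unspliced member do not assign it to 1 strand of the genome.

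Sequence of the members was read from reference transcripts, which limited it to the 1088 members (25.9%) that lay wholly within 1 exon of GENCODE vM21 (GRCm38, the coordinates of mm10). Pseudogenes among them show how a short unnamed locus can be told from the gene it was copied from. A set of 3 pseudogene loci of at most 300 bp, each with at least 50 reads implied by its interval in each library, is printed on the strand of the pseudogene. Capitals mark bases that differ from, or are missing in, the protein-coding transcript that blastn aligned best.
Gm6969 (chr12:24638743-24638843, minus strand, mm10): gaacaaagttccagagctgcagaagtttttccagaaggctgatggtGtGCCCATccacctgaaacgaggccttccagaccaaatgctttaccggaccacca
Gm13509 (chr2:49308531-49308627, plus strand, mm10): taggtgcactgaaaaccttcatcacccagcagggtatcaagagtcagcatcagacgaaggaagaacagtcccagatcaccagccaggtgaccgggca
Gm3375 (chr7:3181350-3181586, plus strand, mm10): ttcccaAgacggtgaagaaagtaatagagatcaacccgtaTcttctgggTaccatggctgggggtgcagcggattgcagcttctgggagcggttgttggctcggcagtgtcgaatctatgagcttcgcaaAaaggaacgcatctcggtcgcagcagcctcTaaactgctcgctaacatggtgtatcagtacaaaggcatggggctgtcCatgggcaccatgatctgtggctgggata

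The Gm6969 locus aligned to Cox7a2l, a gene related to subunits of cytochrome c oxidase, over 101 positions with 1 mismatch and 6 gap positions, and 0 of its 51 windows of 51 bases occurred in a transcript of another gene. Its FPKM was 4914 (4286 to 5542) in control and 5227 (4659 to 5795) in Klf9-OE, with overlapping intervals. The Gm13509 locus aligned to Ap2m1, a subunit of the clathrin adaptor AP-2, without a mismatch over 96 positions, and 46 of its 47 windows also occurred in a transcript of another gene. Reads of this locus therefore cannot be told from reads of the other gene. Its FPKM was 3593 (3012 to 4174) in control and 4161 (3577 to 4746) in Klf9-OE. The Gm3375 locus aligned to Psmb5, a catalytic subunit of the proteasome, with 5 mismatches and 1 gap position over 237 positions, and shared 30 of 187 windows with another gene. Its FPKM was 57.9 (44.8 to 71.1) in control and 56.6 (42.1 to 71.1) in Klf9-OE. In all 3 the intervals of the libraries overlapped, but this did not hold for every member in a pseudogene exon. Intervals were apart and higher in Klf9-OE at Rps15a-ps2, and apart and lower at Rps19-ps6. At Rps15a-ps2 the spans were 62 and 58 bp with 116 and 142 implied reads, a ratio of 1.00 after correction for depth. At Rps19-ps6 the spans were 80 and 110 bp with 113 and 102 implied reads, a ratio of 0.734. Of 47 span-matched members in a pseudogene exon, 5 (10.6%) had intervals apart and higher and 2 (4.26%) apart and lower. The shares of named genes were 11.1 percent and 15.1 percent. A window shared with another gene was present in 15 of 49 pseudogene members (30.6%) that lay within 1 exon, in 59 of 864 members within a protein-coding exon (6.83%), and in 16 of 175 within a long noncoding exon (9.14%).

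The median span of the members was 533 bp in control, with quartiles of 344 and 950 bp and a range of 51 to 313797 bp. Control loci that were not shared were shorter, with a median of 397 bp, and rested on fewer reads, with a median of 11.9 implied reads against 18.7 for members. Members under 200 bp numbered 328, members of at least 5000 bp 237, and members of at least 50 kb 17. The best matching Klf9-OE loci, taken as those with the longest overlap, had a median span of 421 bp. The matching locus was shorter than the control locus in 2689 members (63.9%), longer in 1500 and of the same span in 18, and start and end were identical in 10. A member met 1 Klf9-OE locus in 2998 cases, 2 in 873 and 3 or more in 336, with 13 as the highest number, and 599 Klf9-OE loci met more than 1 member. Models were assembled in each library on its own, so pairs of members and matches are not measurements of 1 fixed region. At the edge of the rule, 18 members overlapped their match by 1 to 10 bp (median FPKM 4.54 in control) and 20 loci missed one by 1 to 10 bp (median FPKM 2.34).

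**Figure D1:**
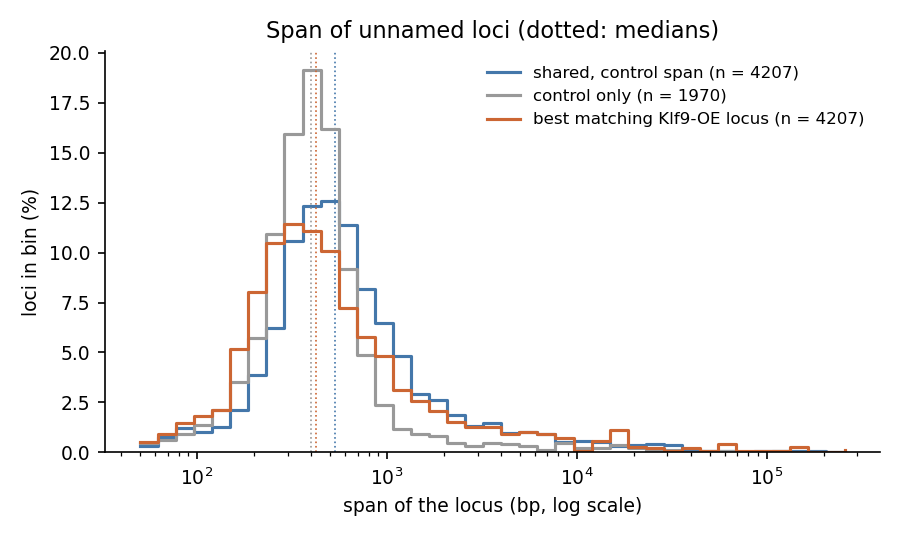
Share of loci (%) against span (bp, log scale) for the 4207 shared loci in control, their best matching Klf9-OE loci, and the 1970 control loci not shared. Dotted lines mark the medians of 533, 421 and 397 bp.

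The median FPKM of the members was 2.72 in control, with quartiles of 1.83 and 5.43, and 4.60 in the matching Klf9-OE loci. In control 3564 members (84.7%) were under an FPKM of 10, and 82 were at 1000 or more, of which 79 spanned under 250 bp. In members with at least 1 implied read, the FPKM that 1 read gave had a median of 54.7 in members of 51 to 99 bp, 3.22 at 100 to 199 bp, 0.245 at 200 to 499 bp, 0.0835 at 500 to 999 bp and 0.0357 at 1000 to 4999 bp. An FPKM of a short member thus cannot be set beside that of a long one as an amount of RNA. From 5000 bp upward the value was 0.1001, where a span includes introns. Of 92 members of at least 5000 bp with at least 50 reads in control, 71 had an implied transcript length under 20% of the span, and 73 covered an exon of GENCODE. Reads were taken from each interval as if its width came from the read number alone. In 323 members that calculation gave under 1 read in a library, and the cause was not tested. Read numbers below are therefore given only beside the FPKM.

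**Figure D2:**
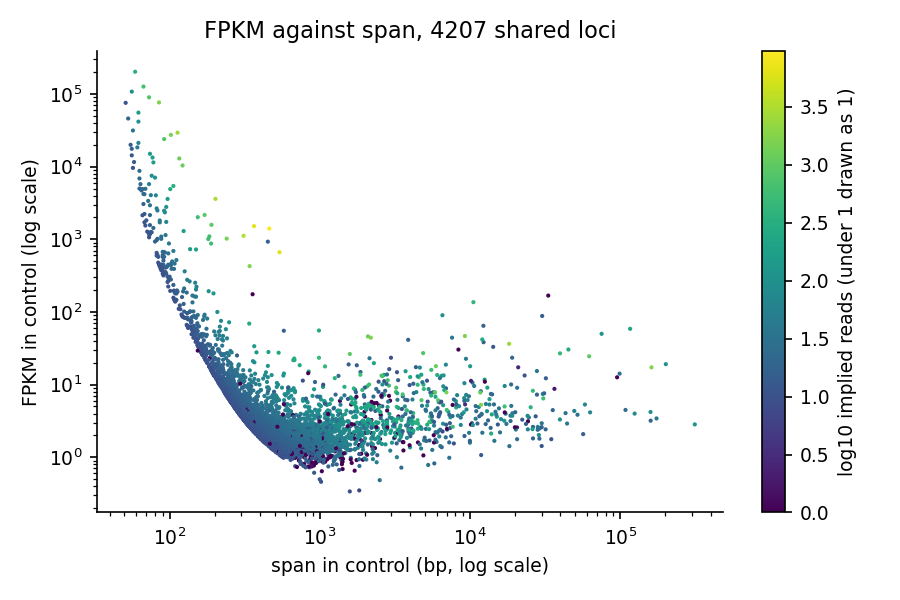
FPKM in control (log scale) against span in control (bp, log scale) for the 4207 shared loci, coloured by the log10 of the implied reads. The values above 1000 lie almost all below 250 bp, and the longest loci range around a median FPKM of 4.05 (237 loci of at least 5000 bp).

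The rule did not use GENCODE classes or distances to genes. It did require a locus without a gene name, and names come from the supplied annotation, so the shares below are not independent of the rule. Members were longer than control loci that were not shared (median 533 against 397 bp), and a longer locus meets an exon more readily. How far span accounts for the shares below was not tested. An exon of a protein-coding gene in GENCODE met 1317 members (31.3%), a long noncoding exon 425 (10.1%) and a pseudogene exon 161 (3.83%). Another 1057 (25.1%) lay in introns only, and 1241 (29.5%) met no GENCODE gene. In the control loci that were not shared, 27.1% met a protein-coding exon, 8.58% a long noncoding exon and 1.62% a pseudogene exon, whereas 32.9% lay in introns. Of the members, 800 (19.02%) met neither a GENCODE nor a RefSeq gene. On chromosomes 1 to 19, the shared portion of the control unnamed loci ranged from 62.9% (chromosome 16) to 72.4% (chromosome 13).

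**Figure D3:**
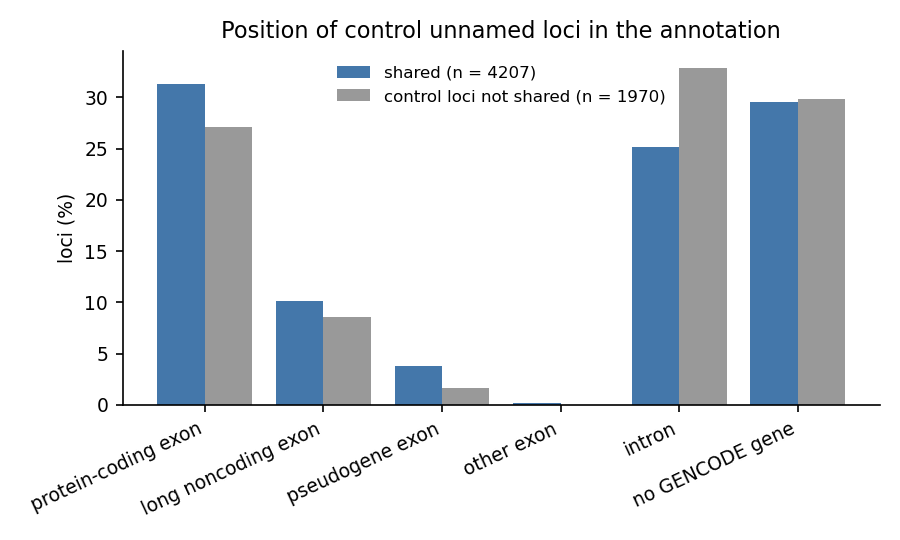
Share of loci (%) by position in the GENCODE annotation for 4207 shared loci and 1970 control loci not shared, each locus counted once in the order shown. Exon classes hold more of the shared loci, and introns hold 25.1% of shared and 32.9% of other loci.

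A named locus of the control table was overlapped by 1466 members (34.8%) and lay within 10 kb of another 1784 (42.4%), so that 77.3% were in or near a named gene. The same overlap was 46.9% in control loci that were not shared. Where the member did not overlap, the median distance to the nearest named locus was 3886 bp. Within 10 kb, 1116 members lay downstream of the nearest named locus on the strand of its gene and 559 upstream. The strand was not known for 109. A member downstream of a named locus can still overlap a GENCODE exon of that gene. In the first 1000 bp the counts were 481 downstream and 252 upstream. In control loci that were not shared, 386 lay downstream and 291 upstream within 10 kb. The members were nearest to 2173 genes, of which 1297 had 1 member and 143 had 5 or more. Stx16, a syntaxin of the trans-Golgi network, had 23 members, 19 of which overlapped its locus.

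FPKM values of short members and whole genes are set side by side here as listed, and not as amounts of RNA. Among members that overlapped a gene with an FPKM above 0, 72.5% were below it, and the share was 75.1% for members within 5 kb downstream, 85.0% within 5 kb upstream, and 54.8% beyond 10 kb. Across members with at least 20 implied reads and at least 50% of both spans shared, the log2 ratio of the member and that of its nearest gene had a Pearson correlation of 0.045 (234 overlapping members), -0.0033 (236 downstream) and 0.11 (69 upstream). Several members share a gene and all share the same pair of libraries, so these values are descriptions.

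The Klf9-OE match exceeded the control member by 2-fold or more in 1582 cases (37.6%), and the control member exceeded the match by as much in 354 (8.41%). Of 16321 named autosomal genes above 0 in both libraries, 6.41 percent passed 2-fold toward Klf9-OE and 4.96 percent toward control. The Cufflinks intervals did not overlap in 1175 members that were higher (27.9%) and 250 that were lower (5.94%), against 11.1 percent and 15.1 percent of the named genes. The median log2 ratio was 0.64 in members and -0.013 in named genes. The ratio moved with the spans of the pair. Where the Klf9-OE locus was less than 50% as long as the control locus (1112 members), the median log2 ratio was 1.86, and where it was more than double (559 members), it was -0.46. In the 390 members whose match shared at least 90% of the longer locus, called span-matched here, it was 0.16, with 27 (6.92%) past 2-fold toward Klf9-OE, near the share of named genes, and 9 (2.31%) toward control, below it. In the 154 span-matched members with at least 50 reads in each library the median was 0.087. The median log2 ratio of implied reads, divided by the depth ratio of 1.22, was -0.058 over all members. Which part of the ratio came from the span, and which from the cells, was not tested.

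**Figure D4:**
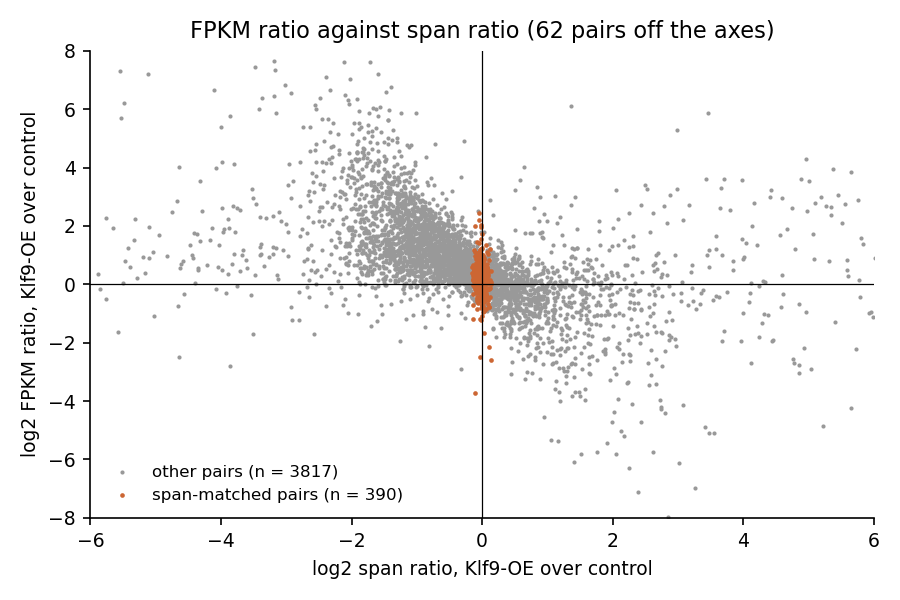
Log2 FPKM ratio (Klf9-OE over control) against log2 span ratio of the same pair, with 3817 pairs in grey and 390 span-matched pairs in orange. Pairs with a shorter Klf9-OE locus lie mostly above 0, those with a longer one spread to below 0, and 62 pairs are off the axes.

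Members covered 79 protein-coding genes of GENCODE that had no name of their own in either table, with 167 members over their exons, and 26 of the genes had a member with at least 50 reads in both libraries. Of the 79 symbols, 45 start with Gm or end with Rik. The values of 7 of these genes with known roles in germ cells, and of Zcwpw2, which GENCODE does not class as protein-coding, follow. They were picked by hand after their values were seen. ANKRD31 acts in the formation of meiotic double-strand breaks in the region shared by the sex chromosomes. SHOC1, RNF212 and RNF212B are needed for crossovers, and ZCWPW2 is related to a reader of the histone marks that PRDM9 sets. MEIOSIN works with STRA8 at meiotic entry. SPOCD1 directs DNA methylation to retrotransposons with the piRNA pathway, and DNMT3C is a rodent DNA methyltransferase that acts on young retrotransposons in male germ cells.

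The promoters of Ankrd31, Rnf212 and Rnf212b are printed because the 5′ edge of a member fell within the window. Each runs from 250 bases before to 50 after a transcript start of the gene in RefSeq (GRCm38.p6), which in none of these genes is the outermost one, 5′ to 3′ on the gene's strand, with the GC box GGGCGG or its reverse complement CCGCCC in capitals. GC-rich boxes are the class of site to which KLF proteins bind.
Ankrd31 (chr13:96748043-96748342, plus strand): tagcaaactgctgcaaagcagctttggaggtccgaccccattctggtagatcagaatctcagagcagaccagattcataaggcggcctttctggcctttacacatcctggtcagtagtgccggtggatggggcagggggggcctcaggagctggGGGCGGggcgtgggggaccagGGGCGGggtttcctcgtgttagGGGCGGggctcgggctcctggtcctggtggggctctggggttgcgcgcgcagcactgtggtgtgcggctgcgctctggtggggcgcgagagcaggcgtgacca
Rnf212 (chr5:108774978-108775277, minus strand): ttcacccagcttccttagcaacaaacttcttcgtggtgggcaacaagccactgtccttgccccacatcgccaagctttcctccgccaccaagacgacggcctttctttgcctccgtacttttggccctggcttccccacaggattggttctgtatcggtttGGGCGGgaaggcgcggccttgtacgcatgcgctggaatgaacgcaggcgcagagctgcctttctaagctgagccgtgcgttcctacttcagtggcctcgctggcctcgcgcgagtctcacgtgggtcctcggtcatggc
Rnf212b (chr14:54813900-54814199, plus strand): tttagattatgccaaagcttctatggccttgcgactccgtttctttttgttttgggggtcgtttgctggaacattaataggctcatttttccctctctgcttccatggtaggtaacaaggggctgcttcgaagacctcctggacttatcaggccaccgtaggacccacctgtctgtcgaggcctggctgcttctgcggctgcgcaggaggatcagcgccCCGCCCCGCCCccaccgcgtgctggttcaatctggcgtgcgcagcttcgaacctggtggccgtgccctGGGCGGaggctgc

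The Ankrd31 locus began 19 bases before the start used for its window in control and 31 bases after it in Klf9-OE. The Rnf212 locus began 8 bases after the start in control, and a separate Klf9-OE locus of 361 bp began 1 base before it. The Rnf212b locus began 10 bases after the start used for its window in control, and a separate Klf9-OE locus of 134 bp began at that start. The windows held 3, 1 and 3 GC boxes for Ankrd31, Rnf212 and Rnf212b. Over all 31396 autosomal windows 36.0% held the GC box on either strand, 7.14% held CACGTG and 13.6% held TATAAA. The 304 windows that 245 members overlapped had shares of 50%, 12.2% and 6.25%. These windows were also richer in GC (median 56.5% against 53% over all windows) and in CpG (median 13 against 7). The shares were not corrected for base composition. None of these 3 motifs contains another. A match in a window is no evidence of binding.

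The Ankrd31 locus (chr13:96748274-96909803, over 30 GENCODE exons) spanned 161530 bp in control and 161441 bp in Klf9-OE. Its FPKM was 17.3 (16.4 to 18.1) in control and 17.4 (16.7 to 18.1) in Klf9-OE, and the intervals overlapped. The Shoc1 locus (chr4:59042627-59117835, AI481877 in GENCODE) was at 50 (40.7 to 59.3) in control and 53.5 (51.3 to 55.8) in Klf9-OE, again with overlapping intervals, although the implied reads were 115 and 2253, so the intervals of such long models do not give plain read numbers. The longest of 6 members in Rnf212 (chr5:108729812-108775019) was at 30.4 (26.6 to 34.2) in control, and its match, which ended 27269 bp from the same start, was at 32.1 (28.3 to 36.0). The Rnf212b locus (chr14:54814160-54853907) also held the named gene Homez and was at 26.9 (24.4 to 29.4) in control and 25.3 (22.8 to 27.8) in Klf9-OE. In the longest member of each of these 4 genes, the intervals of control and Klf9-OE overlapped. The shorter members there met Klf9-OE loci of very different span, and some of those pairs had intervals apart, as at chr4:59135353-59137613 in Shoc1, with 2.68 (1.41 to 3.94) over 2261 bp in control and 13.3 (6.64 to 19.9) over 215 bp in Klf9-OE.

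The longest of 7 members in Zcwpw2 (chr9:117923859-118040331) had an FPKM of 58.6 (50.4 to 66.8) in control and 35.6 (33.0 to 38.2) in Klf9-OE. The spans were 116473 and 116491 bp and the intervals did not overlap, but the implied reads went the other way, from 206 to 732. Another member there, of 1065 bp (chr9:117910961-117912025), was at 0.928 (0.532 to 1.32) in control and higher, at 3.16 (1.82 to 4.51), in a Klf9-OE match of 411 bp. RefSeq lists Zcwpw2 as a gene and GENCODE as a transcribed unprocessed pseudogene. The Meiosin locus (chr7:19088245-19118485, Gm4969 in GENCODE) was at 88.1 (43.1 to 133) in control and 202 (195 to 209) in Klf9-OE. The intervals did not overlap, with the lower value in control. The control value rested on 15.3 implied reads and the Klf9-OE value on 3081. The control model of 30241 bp also took in Six5, and the Klf9-OE model of 20162 bp did not. Six5 was listed by name at 4.55 in control and at 0 in Klf9-OE.

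Spocd1 had 2 members, both lower in Klf9-OE in the best match. The longer (chr4:129928760-129954977) was at 8.22 (7.47 to 8.97) in control and 3.99 (3.38 to 4.60) in Klf9-OE, where its match covered 18172 of 26218 bp. Another 4 Klf9-OE loci met it, with FPKM from 7.39 to 51.5, and with all matches weighted by overlapped bases the log2 ratio turned from -1.04 to 0.31. The shorter member (chr4:129955391-129957106) was at 6.36 (5.23 to 7.50) in control and 3.97 (2.93 to 5.01) in Klf9-OE, with spans of 1716 and 654 bp. For Spocd1, then, the direction of the FPKM ratio depends on which pieces are counted. The piece at 51.5 rested on 28.0 implied reads. With the best match alone, the implied reads of control and Klf9-OE were 479 and 171 at the longer member. At the shorter member they were 125 and 58.2, so the reads of both best matches were also lower in Klf9-OE. Dnmt3c also had 2 members. At chr2:153694722-153713547 the FPKM was 5.09 (3.43 to 6.75) in control and 17.6 (11.3 to 23.8) in a Klf9-OE match of 1201 bp, and at chr2:153719282-153723503 it was 7.64 (4.69 to 10.6) and 28.1 (13.1 to 43.1) in a match of 3146 bp. Both were higher in Klf9-OE, in spans shorter than those of control, and the implied reads were 37.6 and 31.9 at the first member and 26.9 and 14.0 at the second.

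**Figure D5:**
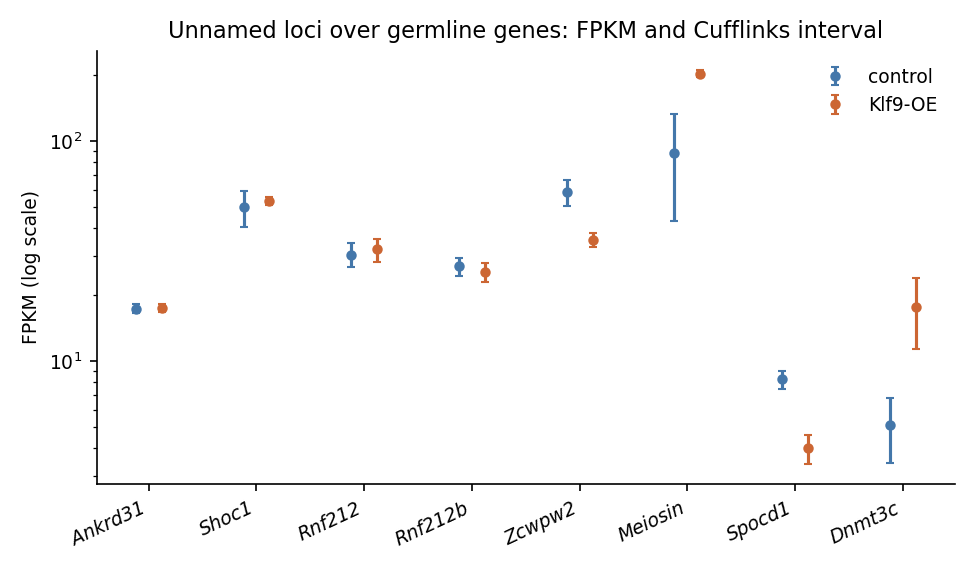
FPKM (log scale) of the longest shared locus over each of 8 germline genes in control and Klf9-OE, 1 library each, with bars for the Cufflinks 95% interval. Intervals overlap for Ankrd31, Shoc1, Rnf212 and Rnf212b, lie lower in Klf9-OE for Zcwpw2 and Spocd1, and lie higher for Meiosin and Dnmt3c.

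Other genes without a name in the tables had members of like span in both libraries. CN725425 (chr15:91199460-91261574) was at 24.5 (23.0 to 26.1) in control and 23.3 (22.3 to 24.4) in Klf9-OE. 4930469K13Rik (chr11:34093042-34098566) was at 15.9 (14.6 to 17.3) and 18.04 (16.8 to 19.3), and Gm4924 (chr10:82354291-82379634) at 4.88 (4.36 to 5.40) and 4.38 (3.93 to 4.83). None of these 3 had intervals apart. Ighm, the constant region of immunoglobulin mu, had 2 members at 13.6 each (chr12:113418584-113421262 and chr12:113421370-113427417), and both met the same Klf9-OE locus of 8770 bp at 6.44 (5.75 to 7.14). Over the 26 genes with at least 50 reads in both libraries, the interval was apart and higher in Klf9-OE for 5 and apart and lower for 4. Over all members with that many reads the shares were 30.4% and 8.12%, and over named genes 11.1 percent and 15.1 percent.

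Some span-matched members lay just past the 3′ end of the named locus of a gene, and 5 of them, chosen after their values were seen, follow. All 5 overlapped a GENCODE exon of that same gene, so distances here run from the named locus and not from the GENCODE end. The locus 346 bp downstream of Srpk1, a kinase of splicing factors (chr17:28587662-28589246), was at 26.4 (24.7 to 28.1) in control and 27.5 (25.9 to 29.0) in Klf9-OE. The locus 78 bp past Mxd4, a partner of MAX (chr5:34173927-34176502), was at 13.3 (12.4 to 14.2) and 13.1 (12.3 to 13.9). The locus 406 bp past Fam217b (chr2:178422567-178424428) was at 13.6 (12.5 to 14.7) and 14.8 (13.8 to 15.8). In these 3 the intervals overlapped. The locus 82 bp past Hcn4, a pacemaker channel gene (chr9:58861037-58863167), was at 10.03 (9.15 to 10.9) in control and 6.70 (6.05 to 7.35) in Klf9-OE, where the intervals were apart, and the named Hcn4 locus was at 11.4 and 7.09. The locus 81 bp past Appbp2 (chr11:85187288-85189982) was at 7.23 (6.58 to 7.89) in control and 8.95 (8.29 to 9.60) in Klf9-OE, with intervals apart in the other direction.

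Imprinted genes had 17 members within 10 kb, at 6 of 29 genes of the list (20.7%), against 11.4% of the 22589 named autosomal genes. PEG3 is a zinc finger protein expressed from the paternal allele. A locus that overlapped Peg3 (chr7:6703917-6706008) was at 46.0 (43.3 to 48.7) in control and 37.4 (35.2 to 39.5) in Klf9-OE, with spans of 2092 and 2098 bp, and the intervals were apart. The named Peg3 locus was at 27.8 and 24.5. An intergenic locus on the same chromosome (chr7:6572368-6575594), 1449 bp past Olfr1350, was picked for its matched span and not from the imprinted list. It was at 9.06 (8.39 to 9.72) in control and 7.26 (6.72 to 7.80) in Klf9-OE, with intervals apart. The intergenic member beside it (chr7:6575649-6587478) was at 5.26 (5.01 to 5.52) in control and 5.51 (5.19 to 5.84) in Klf9-OE. Its intervals overlapped, over spans of 11830 and 6563 bp. At Zim1 (chr7:6672187-6674238) the FPKM was 2.77 (2.30 to 3.24) and 8.67 (5.39 to 11.9), but the Klf9-OE locus spanned 296 of 2052 bp and the implied reads were 141 and 28.0. Inside Meg3, a maternally expressed noncoding RNA, the locus at chr12:109548368-109548733 was at 33.8 (28.3 to 39.3) and 37.2 (32.7 to 41.7).

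Of all 22589 named autosomal genes, 11.4% had a member over them or within 10 kb. Of 28 germ cell genes, 26 of them autosomal, 3 had members within 10 kb (Dazl, Pou5f1 and Tdrd12), 6 members in all. Of 19 pluripotency genes 3 had a member (Esrrb, Lin28b and Sox2), and of 20 targets of FGF and ERK signalling 4 did (Dusp6, Etv4, Ier3 and Spred2). The Dusp6 locus, 617 bp upstream of that phosphatase gene (chr10:99262105-99262614), was at 1.78 (0.853 to 2.71) in control and 3.50 (1.63 to 5.37) in Klf9-OE. The Etv4 locus, 811 bp downstream (chr11:101768638-101768931), was at 5.39 (2.51 to 8.26) and 1.89 (1.20 to 2.58). The Etv4 pair spanned 294 and 677 bp with 140 bp shared, and its implied reads went the other way, from 14.0 to 30.0. The Dusp6 pair spanned 510 and 321 bp, with 14.7 and 14.0 implied reads. Both pairs of intervals overlapped, and the named genes were at 4.30 and 14.2 (Dusp6) and at 2.26 and 18.8 (Etv4). The Sox2ot locus in the host transcript of Sox2 (chr3:34648923-34649840) was at 3.41 (2.56 to 4.26) and 3.63 (2.79 to 4.47). In the Klf family Klf1 and Klf3 had 4 members, and no member lay within 10 kb of Klf9. A 63 bp member in Dazl, an RNA-binding protein of germ cells (chr17:50285797-50285859), was at 8755 (5446 to 12064) in control from 28.0 implied reads, and its 97 bp match was at 1501 (1157 to 1845) from 76.0. The FPKM was lower and the read number higher in the longer model. Gonadal somatic, macrophage and endothelial markers had no member within 10 kb.

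Among loci with at least 50 reads in each library, the highest FPKM belonged to loci little longer than a read. The highest, 25237 bp from Avpr1b (chr1:131573819-131573877, 59 bp), was at 202746 (180790 to 224702) in control from 341 implied reads and at 417216 in Klf9-OE from 565. The 67 bp locus at chr14:19278143-19278209 was at 126659 in control and 152734 in Klf9-OE. The 62 bp locus of the pseudogene Rps15a-ps2 (chr19:28742533-28742594) was at 41722.5 in control and 82606 in a Klf9-OE match of 58 bp. Its implied reads were 116 and 142. The ranking by reads gave other loci. The most reads, 9658 in control and 14626 in Klf9-OE, fell in a locus of 461 bp on chromosome 11 (chr11:109011643-109012103), which RefSeq places in the noncoding gene Gm36876, at 1406 (1377 to 1434) and 1753 (1724 to 1782). A locus of 365 bp in an intron of Cdk8, the kinase of the Mediator complex (chr5:146260991-146261355), was at 1518 (1481 to 1556) in control and 2369 (2326 to 2411) in Klf9-OE.

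Members under 700 bp with at least 500 reads in control numbered 21, a set defined after the values were seen, and held 21.3% of the implied reads of all members. GENCODE had no gene at 11 of them, an intron at 7 and a pseudogene or long noncoding exon at 3, and 10 lay over 50 kb from a named locus. Of the 15 with a span-matched pair, 14 were higher in Klf9-OE and 1 was lower. Their FPKM ratio ranged from 0.875 to 1.66 with a median of 1.34, and the read ratio over the depth ratio from 0.953 to 1.81 with a median of 1.27. The lower one was the pseudogene Gm20568 (chr3:126447921-126448012), at 23977 (22267 to 25687) in control and 20981 (19596 to 22367) in Klf9-OE.

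Among loci with at least 50 reads in each library, the largest ratios came mostly from pairs of unequal span. Of the largest toward Klf9-OE, 4 are given here, at 49.3-fold, 15.7-fold, 12.3-fold and 10.1-fold in FPKM. The first, 1522 bp from Yipf4 (chr17:74487764-74487971), paired 208 with 77 bp, and its implied reads were 86.3 and 77.2. The others lay at Ddx39b, Gm7972 and 4930447C04Rik. The largest toward control was at Rps19-ps6 (chr12:110898081-110898160), from 7059 in 80 bp to 1123 in 110 bp. Of the 5 largest toward control, 1 had matched spans, at chr9:97275723-97282274, where RefSeq has the noncoding gene Gm33302, from 90.1 (71.5 to 109) to 15.97 (14.3 to 17.6), but the implied reads were 94.0 and 364.

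The members farthest from a named locus, among those with at least 50 reads in each library, ranged widely in FPKM. The farthest, 1453001 bp from Gm20268 (chr1:102628203-102628324, 122 bp in both libraries), was at 10386 (9785 to 10987) in control and 13093 (12485 to 13701) in Klf9-OE. The next, in the noncoding gene 1700054O05Rik (chr10:35478773-35485445), 867543 bp from Frk, was at 13.4 (11.02 to 15.8) and 14.6 (12.2 to 17.0). The third (chr15:19857425-19864061), with no GENCODE or RefSeq gene and 801153 bp from Acot10, was at 9.48 (7.47 to 11.5) in control and 4.49 (3.27 to 5.72) in Klf9-OE. Its spans were 6637 and 6653 bp, its intervals were apart, and its implied reads were 89.6 and 53.6. Of the 5 longest members with at least 50 reads in each library, apart from Ankrd31, Shoc1 and Zcwpw2, a locus of 201306 bp over Iqsec1 (chr6:90787116-90988421) was at 19.103 (15.5 to 22.7) and 16.4 (13.3 to 19.5). The longest, 313797 bp over a cluster of zinc finger genes that included Zfp932 (chr5:109735490-110049286), was at 2.83 (2.31 to 3.36) and 2.16 (1.80 to 2.53) in a Klf9-OE match of 101193 bp.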

How the data were processed

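For 1 control and 1 Klf9-OE library, total RNA was the input to the TruSeq RNA v2 kit, and 51-mer single-end reads were sequenced. Per the labels and the study's methods, the authors used TopHat2 with Bowtie for alignment to mm10, then Cufflinks and Cuffdiff (versions not given in the sources used here), and they deposited FPKM per locus with a 95% interval, a scale already divided by length and depth. The files hold no counts. Implied reads were taken as the square of 2 times the FPKM over the distance to the upper bound. Starts were raised by 1 base. Ratios used FPKM without a pseudocount, and no test was made, since each group had 1 library.

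Named loci followed a rule: among loci with at least 50 implied reads in each library, the 10 highest by the lower FPKM, the 5 longest, the 5 largest rises and falls and the 3 farthest from a named locus, plus up to 3 per gene list within 10 kb. Other loci were added after their values were seen. The members and lists were chosen with earlier results of these data known. Positions came from GENCODE vM21 and RefSeq GRCm38.p6. The overlap, distance and fold steps were tested on simulated data. Python 3.11.15, pandas 2.3.3 and blastn 2.17.0 were used. Not every locus that the rule names is reported here.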

Additional observations from a re-analysis of the deposited data

How the results depend on the processing

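No paired analysis was possible because each group had 1 library. With an overlap of at least 50% of each locus, 1973 loci were shared, 453 were at least 2-fold higher and 91 lower, the median log2 ratio was 0.42, the median span 495 bp, the median FPKM 3.07 and the share in or within 10 kb of a named gene 75.6%. With a one-to-one match only the values were 2376 loci, 915 higher, 177 lower, 450.5 bp and an FPKM of 2.98. With at least 8 reads in control and 16 in Klf9-OE they were 2780 loci, 740 higher, a median log2 ratio of 0.41, 565.5 bp and an FPKM of 2.94. In span-matched pairs, an alternative chosen after seeing the data, 27 were higher and 9 lower with a median of 0.16, and by depth-corrected implied reads, also chosen then, 723 were higher and 736 lower and the median turned to -0.058. At 4-fold, 721 were higher and 150 lower. A pseudocount of 1 gave a median of 0.47, and combined Klf9-OE loci gave 0.77. With GENCODE genes in place of named loci, 93.2% were in or within 10 kb of a gene. Combining Klf9-OE loci also turned the log2 ratio of 2 named loci, to 0.31 at Spocd1 and to 0.51 at a long noncoding locus in Glp1r (chr17:30921575-30923853, -1.18 with the best match), and the cause was not tested. Among the loci examined singly, 63 had intervals apart, and in 27 of those the depth-corrected read ratio lay on the other side of 1, 4 of them span-matched. Rescaling to named genes, a pseudocount of 0.1 and an FPKM filter of 1 left the counts within 1.5 times and the direction as reported. Depth limits the members with few reads, and intervals cover counting and model error within 1 library.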

Other observations

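Of 919 autosomal microRNA hairpins in RefSeq, 3 lay wholly within a member. The locus with Mir30c-2 (chr1:23291181-23292590, 1410 bp) was at an FPKM of 3.28 in control from 102 implied reads, and its Klf9-OE match was at 2.34 from 9.59. The loci with Mir16-1 and Mir8094 were at 1.31 and 11.5 in control, the first from an interval that implies under 1 read. These values belong to the surrounding transcript and not to the mature microRNA, which the library kit does not capture.

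Some genes had many members. Unc13b, a priming factor of synaptic vesicles, was nearest to 16 members, all of which overlapped it, with spans of 241 to 616 bp, and its own FPKM was 24.5 in control and 28.2 in Klf9-OE. Zfp369, a zinc finger gene, was also nearest to 16, of which 6 overlapped it. Gm11639 had 18 members over a single gene without a name in the tables.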
